A study of Ovis aries with 8 samples.

Results

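Complement is a cascade of plasma and cell-surface proteins that marks microbes and damaged cells for removal. Its classical arm starts when the C1q protein engages the proteases C1r and C1s, which cleave C4 and C2, and its alternative arm is driven by factor B and C3. Host cells, endothelium among them, are shielded by surface and soluble regulators such as CD55, CD46, factor I and C1 inhibitor. The liver makes most plasma complement, but endothelial, mesenchymal and mesothelial cells also make components of it. The genes described here are complement components and regulators, chosen by name from a list of 9. Of these, 6 had a row in the deposited table of 15380 rows, which held 14577 named genes. They were the classical pathway genes C1R, C1S and C2, the last of which also serves the lectin pathway, the alternative pathway gene CFB, and the regulators CFI and CD55. C3, CD46 and SERPING1 matched no row and were not analysed here.

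Expression was measured on 1-colour arrays in cells cultured from the pulmonary artery endothelium of near-term sheep fetuses. There were 4 control cultures, labelled normothermic, and 4 cultures labelled as both growth restricted (IUGR, intrauterine growth restriction) and hyperthermic, with 1 array for each culture. Each title gave a different animal identifier, and neither genotype nor sex was given. Exposing pregnant ewes to heat is, as background, an established sheep model of placental insufficiency and fetal growth restriction. The growth medium of every culture was DMEM supplemented with fetal bovine serum. Titles put the controls at passage 5 or 6, and the IUGR cells at 3 or 4. Growth restriction, heat and passage therefore cannot be told apart.

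Values are log2 intensities unless an intensity or a fold is named, each ± is a standard deviation over 4 cultures unless marked SE, and differences are IUGR minus control. Values under the 10th percentile of the table were raised to a floor of 2.56. The 95th percentile of olfactory receptor rows, 3.44, served as a level of background. A culture was represented by 1 array, so a difference between individual cultures has no replicate check. The probe intensities of different genes are not on a common scale, and no gene's level is set against another's.

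C1R and C1S, the paired proteases of the first complement component, were high in 3 of the 4 IUGR cultures. C1R was 3.82, 3.75, 4.29 and 3.94 in control replicates 1 to 4. It was 7.42, 6.58, 3.77 and 7.45 in IUGR replicates 1 to 4. IUGR replicates 1, 2 and 4 thus lay above every control, at 11.1, 6.21 and 11.4 times the geometric mean of the controls, while IUGR replicate 3 lay within the control range and made the groups overlap. On the intensity scale the 4 controls spanned 13.4 to 19.5 units, and IUGR replicate 4 stood at 175 units.

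C1S, the protease that cleaves C4 and C2 once C1r has activated it, was 2.78, 3.49, 2.77 and 3.22 in control replicates 1 to 4. Its values were 5.74, 7.09, 3.40 and 7.20 in IUGR replicates 1 to 4. The same 3 IUGR cultures were high, and IUGR replicate 3 again lay among the controls. Of the controls only replicate 2 passed the olfactory receptor level of 3.44, so folds of C1S against control start from background. Of the 15 pairs among the 6 genes, C1R and C1S had the most similar profiles, with a root mean square difference of 0.68 between their centred values over the 8 arrays. The next closest pair, C1S and C2, had a difference of 1.01.

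**Figure D1:**
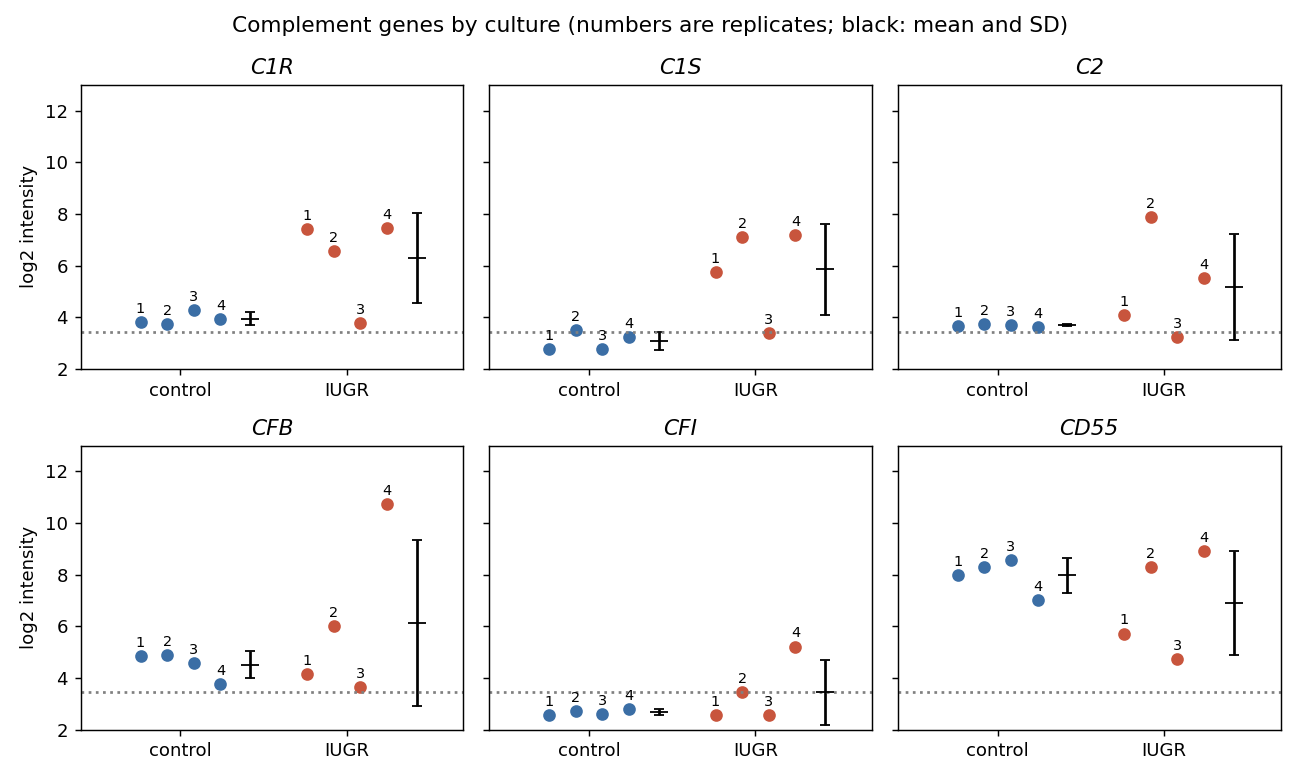
Log2 intensity (y axis) of the 6 complement genes in each control and IUGR culture (x axis). Numbers mark replicates, black bars the mean and SD over 4 cultures, and the dotted line the olfactory receptor level of 3.44. C1R and C1S were high in IUGR replicates 1, 2 and 4, C2 was highest in IUGR replicate 2, CFB in IUGR replicate 4, and CD55 was lowest in IUGR replicate 3.

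C2 and CFB encode homologous proteases that form the catalytic part of the classical and the alternative C3 convertase. C2 was nearly constant in control replicates 1 to 4, at 3.67, 3.75, 3.72 and 3.64. In IUGR replicates 1 to 4 it was 4.08, 7.88, 3.22 and 5.53. IUGR replicates 2 and 4 stood at 18.1 and 3.56 times the geometric mean of the controls. IUGR replicate 1 lay just above the control range, and IUGR replicate 3 below both that range and the olfactory receptor level.

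CFB, factor B of the alternative pathway, was 4.84, 4.90, 4.57 and 3.77 in control replicates 1 to 4. It was 4.15, 6.00, 3.65 and 10.73 in IUGR replicates 1 to 4. IUGR replicate 4 was far above all other cultures, with an intensity of 1700 units against 12.6 to 63.9 units elsewhere, which is 74.1 times the geometric mean of the controls. IUGR replicate 2 was the next highest, at 2.79 times that mean. IUGR replicates 1 and 3 lay among or below the controls.

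The regulators behaved in different ways. CFI, factor I, the protease that inactivates C3b and C4b, was at most 2.81 in the 4 controls, with 1 of them at the floor. In IUGR replicates 1 to 4 it was 2.56, 3.45, 2.56 and 5.22. It was clearly above background in IUGR replicate 4 alone, stood at the olfactory receptor level in IUGR replicate 2, and was at the floor in the other 2 IUGR cultures. No fold is given because every control lay below that level.

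CD55, decay-accelerating factor, a membrane protein that dismantles C3 convertases on host cells, was above background in every culture. It was 8.00, 8.31, 8.59 and 7.02 in control replicates 1 to 4. In IUGR replicates 1 to 4 it was 5.72, 8.31, 4.72 and 8.93. The IUGR cultures split, with replicates 1 and 3 below every control, where the geometric mean of the controls was 4.77 and 9.54 times their value, and replicates 2 and 4 within or above the control range. The order of the IUGR cultures thus differed from that of C1R, since IUGR replicate 1 was high in C1R and low in CD55.

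**Figure D2:**
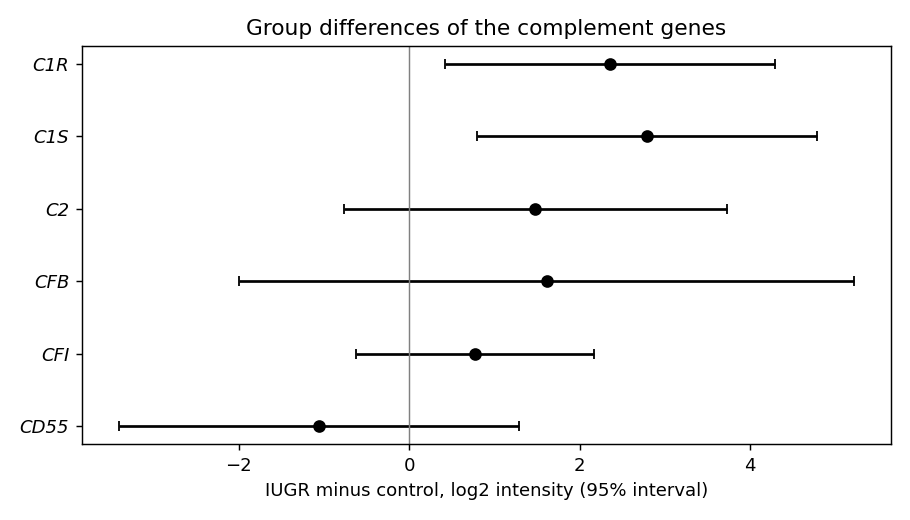
Difference between the IUGR and control means in log2 intensity (x axis) for each of the 6 complement genes (y axis), with its 95% interval from limma. The intervals of C1R (0.42 to 4.30) and C1S (0.80 to 4.78) lay above 0, and those of C2, CFB, CFI and CD55 included 0.

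Between the groups, C1S differed by 2.79 ± 0.84 (SE) and C1R by 2.36 ± 0.82 (SE), the widest differences of the 6. C1S was 3.07 ± 0.35 in control and 5.86 ± 1.77 in IUGR cultures, with a limma adjusted p of 0.191 over all genes. C1R was 3.95 ± 0.24 and 6.31 ± 1.74, with a limma adjusted p of 0.239. The 2 genes did not pass the threshold of 0.05, and both lay under 0.05 before adjustment. None of the 6 genes passed over all genes, where 10 genes or 0.0686% did. Before adjustment 2 of the 6 had a p under 0.05, both higher in IUGR, against 8.2% of all genes in that direction and 15.9% in either. In none of the 6 did the groups separate, which they did for 8.65% of all genes, 4.53% with IUGR higher and 4.12% with IUGR lower.

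The spread between cultures was wide for the other 4 genes, and none had a limma p under 0.05 before adjustment. The differences of CFB, C2 and CFI were 1.61 ± 1.52 (SE), 1.48 ± 0.95 (SE) and 0.77 ± 0.59 (SE), with limma adjusted p-values of 0.669, 0.501 and 0.578. CD55 differed by -1.06 ± 0.99 (SE), with a limma adjusted p of 0.668. The 95% intervals reached from -1.99 to 5.22 for CFB and from -3.41 to 1.29 for CD55. The spread lay in the IUGR group, where the SD was 3.23 for CFB, 2.04 for C2 and 2.02 for CD55, against 0.52, 0.05 and 0.68 in control. The median difference of the 6 genes was 1.55 and that of all genes was 0. It was 0.77 without IUGR replicate 4 and 2.29 without IUGR replicate 3.

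Individual cultures carried these differences. Without IUGR replicate 3 the differences of C1R and C1S were 3.20 and 3.61, both with a limma adjusted p of 0.0587. Without IUGR replicates 2 and 4 they were 1.64 and 1.50 (limma adjusted p of 0.581 and 0.470). In that setting C2, CFB and CFI turned to -0.05, -0.62 and -0.11. CD55, by contrast, differed by -2.75 there (limma adjusted p = 0.236), and by -3.07 when control replicate 4 was left out as well (limma adjusted p = 0.0575). The difference of CFB was 0.08 without IUGR replicate 4, and that of C2 was 0.58 without IUGR replicate 2.

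The IUGR cultures highest in these genes also carried markers of other cells, and the labelled endothelial identity was not equally visible in all 8. Of 17 measured endothelial markers, 6 were at or below the olfactory receptor level in IUGR replicate 2 and 6 in IUGR replicate 4, and none in any other culture. The summed intensity of these markers was 6891 to 14635 units in control and 451 to 8572 units in IUGR cultures. PECAM1 and CDH5, defining endothelial junction genes, were 3.31 and 2.85 in IUGR replicate 2 and 3.63 and 3.49 in IUGR replicate 4. They were at least 7.64 and 7.74 in the other 6 cultures. VWF, the endothelial clotting factor carrier, was 3.77 and 3.41 there and at least 5.19 elsewhere. Fewer cells of a type and less RNA per cell cannot be told apart in these bulk samples.

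Epithelial and mesothelial markers in sum, like CFB, C2 and CFI, were highest in IUGR replicates 2 and 4. The order of these cultures differed, since C2 was higher in IUGR replicate 2 and the marker sum in IUGR replicate 4. The summed intensity of 13 measured markers was 9765 units in IUGR replicate 2 and 14413 units in IUGR replicate 4, against 198 to 256 units in the other 6 cultures. In 9 of the 13, IUGR replicates 2 and 4 both exceeded every other culture by at least 1 log2 unit. Among them were KRT18, a keratin of simple epithelia, WT1, a mesothelial transcription factor, MSLN, mesothelin, and BNC1. By the same measure, noted after the values were seen, 3 of the 6 complement genes (C1S, C2 and CFB) had this pattern, and 1.28% of all genes did. With no minimum gap, C1S, C2, CFB and CFI had it, 4 of 6 against 8.77% of all genes. Their part in the complement values was not tested. No epithelial or mesothelial marker was under a limma p of 0.05 before adjustment.

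C1R and C1S were also high in IUGR replicate 1, at 7.42 and 5.74, where the epithelial and mesothelial markers were on average at control levels. In IUGR replicate 1 the mean log2 level of the epithelial and mesothelial markers was 3.77, within the control range of 3.72 to 4.04. Of the 13 markers, 7 were at or below the olfactory receptor level in that culture, against 3 to 6 in the controls. WT1 was 2.99 and KRT18 5.09 there, within the control values, while MSLN was 5.72, above the control values of 4.33 to 5.42.

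**Figure D3:**
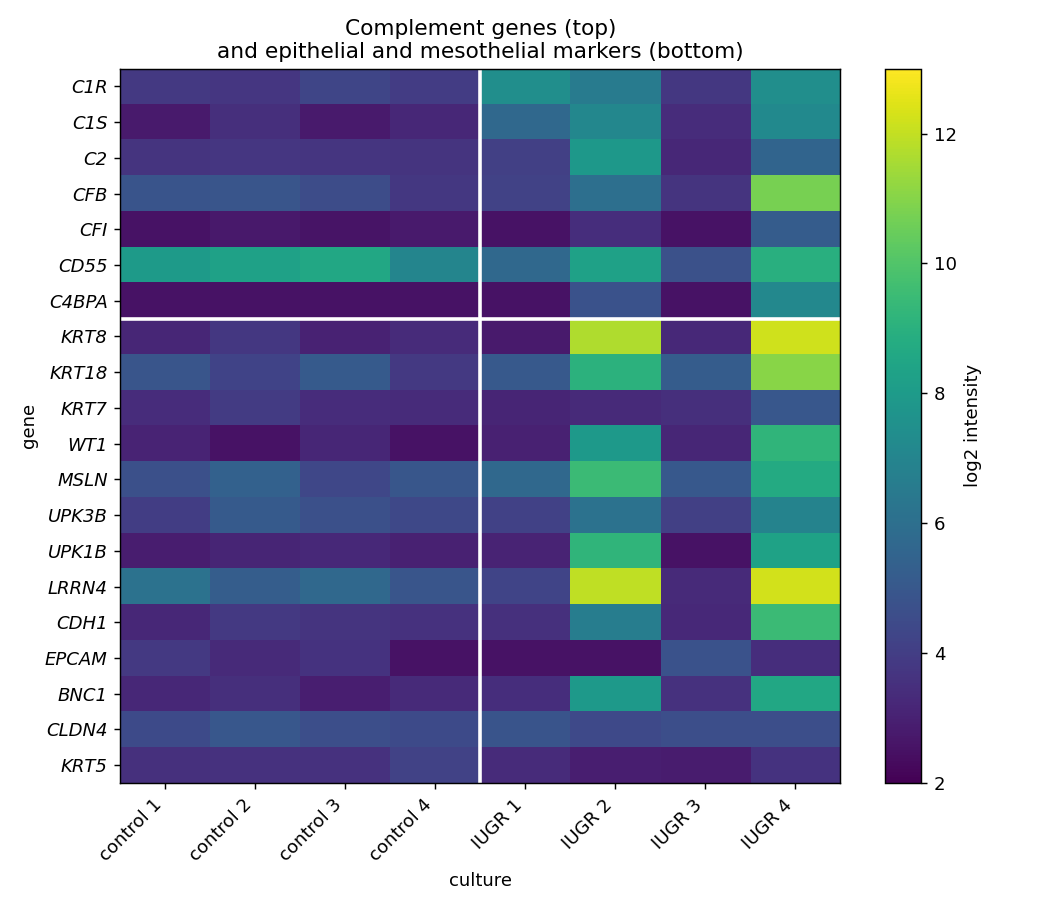
Log2 intensity (colour scale) of the 6 complement genes and C4BPA (rows above the white line) and of 13 epithelial and mesothelial markers (rows below it) in each culture (columns). KRT8, KRT18, WT1, MSLN, UPK1B, LRRN4, CDH1 and BNC1 were high in IUGR replicates 2 and 4, as were C2, C1S and C1R, and the last 2 were also high in IUGR replicate 1, where the markers averaged 3.77.

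Fibroblast markers were higher in mean in IUGR cultures for 13 of 14 measured. At a limma p under 0.05 before adjustment 6 were higher, against 8.2% of all genes in that direction, and none passed over all genes. Their summed intensity was 5473 to 21673 units in control and 14184 to 28272 units in IUGR cultures. Mean fibroblast marker levels were 10.06, 9.49, 9.21 and 8.41 in IUGR replicates 1 to 4, where C1R was 7.42, 6.58, 3.77 and 7.45. In control replicates 1 to 4 the marker means were 5.72, 5.18, 5.19 and 9.08, and C1R was 3.82, 3.75, 4.29 and 3.94. DCN, decorin, reached 8.12 in control replicate 4, and its IUGR values were 11.20, 10.95, 10.18 and 10.65 for replicates 1 to 4. PDGFRA, a mesenchymal growth factor receptor, was at most 4.28 in control and 6.05, 8.75, 6.32 and 9.30 in IUGR replicates 1 to 4. IUGR replicates 2 and 4 were thus the highest in PDGFRA, as they were in C1S, C2 and CFB. COL3A1, a fibrillar collagen gene chosen here after its values were seen, also had its top values there, at 11.46 and 10.86. It was nearly as high in control replicate 4, at 10.79. Other markers of the list ran differently. COL1A1, COL1A2, THY1, POSTN, PDGFRB, TCF21 and FN1 were lower in IUGR replicate 4 than in any other IUGR culture. The part of these markers in the complement values was not tested.

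CD55 was lowest in 3 cultures that also had a high mean of smooth muscle markers. IUGR replicate 3, IUGR replicate 1 and control replicate 4 had CD55 values of 4.72, 5.72 and 7.02, and mean smooth muscle marker levels of 7.31, 7.90 and 8.25 over 12 measured genes. IUGR replicate 2 had a mean of 7.51 with a CD55 value of 8.31. In the other 4 cultures the mean was 5.25 to 5.95 and CD55 was 8.00 to 8.93. The summed intensity of the list was 1477 to 17296 units in control and 2445 to 10906 units in IUGR cultures. ACTA2, smooth muscle actin, was 13.09 in control replicate 4, and MYH11, smooth muscle myosin, was 9.21 there. In IUGR replicates 1 and 3 MYH11 was 7.51 and 5.15. Not every marker followed the mean, and DES was 5.28 in control replicate 4 and 8.93 in IUGR replicate 2. RGS5 was 2.58, 3.39 and 3.49 in IUGR replicate 3, IUGR replicate 1 and control replicate 4. It was 6.95 and 8.91 in IUGR replicates 2 and 4. Of the list MYOCD was lower and DES higher at a limma p under 0.05 before adjustment, and none passed over all genes. CD55 and CFB were lower in IUGR replicates 1 and 3 and control replicate 4 than in every other culture. This was a pattern of 3.29% of all genes, noted after the values were seen. The part of these markers was not tested.

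Leukocyte markers varied in level, and 7 of 10 measured exceeded the olfactory receptor level in at least 1 culture. CD14 was 5.72 to 8.02 and CD68 5.99 to 7.36 over the 8 cultures, and CD68 was highest in IUGR replicate 2. Of 10 measured, PTPRC, the defining leukocyte surface gene, AIF1 and TYROBP did not exceed the olfactory receptor level in any culture, and none had a limma p under 0.05 before adjustment. The summed intensity was 546 to 1491 units in control and 258 to 1235 units in IUGR cultures. LAPTM5 was 3.29 and 3.49 in IUGR replicates 2 and 4, the cultures highest in C2 and CFB, and at least 7.02 in the others.

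The rest of the complement system was mostly dim or level between the groups. Of 57 other complement genes listed, 45 were measured, and 17 of these never exceeded the olfactory receptor level. None passed over all genes, with 2 higher and 4 lower in IUGR at a limma p under 0.05 before adjustment, against 8.2% and 7.68% of all genes in these directions. Their median difference was -0.03. All 5 measured terminal pathway genes (C6, C7, C8A, C8B and C9) stayed below the olfactory receptor level in every culture. The median difference of these 5 was -0.07.

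Among 16 other recognition and activation genes, CFP was higher and COLEC11 lower at a limma p under 0.05 before adjustment. CFP, properdin, which stabilises the alternative convertase that contains factor B, was 3.94 to 4.13 in control and 4.15 to 4.66 in IUGR cultures, without overlap. Its difference was 0.36 ± 0.12 (SE) with a limma adjusted p of 0.214. COLEC11, a collectin of the lectin pathway, was 5.57 ± 0.39 in control and 5.05 ± 0.13 in IUGR cultures. The other genes named by rule, COLEC10 and PTX3, differed by -0.65 ± 0.31 (SE) and 0.84 ± 0.53 (SE). PTX3, pentraxin 3, a soluble pattern recognition protein, reached its 2 highest values in IUGR replicates 4 and 2 (5.07 and 4.51).

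Among 16 other regulators, CLU and CD109 had the lowest p-values. CLU, clusterin, a soluble inhibitor of terminal complex assembly, was 10.21 to 10.47 in control and 9.47 to 9.99 in IUGR cultures. CD109, a surface protein of the protein family that contains C3, was 9.80 to 10.34 in control and 7.43 to 9.02 in IUGR cultures. Neither gene's groups overlapped. CLU differed by -0.58 ± 0.12 (SE) and CD109 by -1.73 ± 0.37 (SE), both with a limma adjusted p of 0.116. CPN1 and CSMD1 stayed below the olfactory receptor level of 3.44 in every culture. CD59, the membrane inhibitor of terminal complex assembly, chosen here after its values were seen, was 7.66 to 8.79 in control and 7.62 to 8.96 in IUGR cultures, so the groups covered the same range. Its 95% interval for the difference was -1.004 to 0.891.

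C4BPA, a chain of the C4b-binding protein that serves as a cofactor for factor I, followed the pattern of CFI. It was at the floor of 2.56 in all 4 controls and in IUGR replicates 1 and 3, and was 4.78 and 7.11 in IUGR replicates 2 and 4. The IUGR mean was at least 1.76-fold higher than the control mean, taking the olfactory receptor level for the controls, with a limma adjusted p of 0.468. This bound rests on IUGR replicate 4, since the mean of the other IUGR cultures, 3.30, lay below that level. In the order of named protein-coding genes given by RefSeq for ARS-UI_Ramb_v3.0, C4BPA is the nearest named gene to CD55 on one side and CR2 on the other. CR2 stayed below the olfactory receptor level in every culture.

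**Figure D4:**
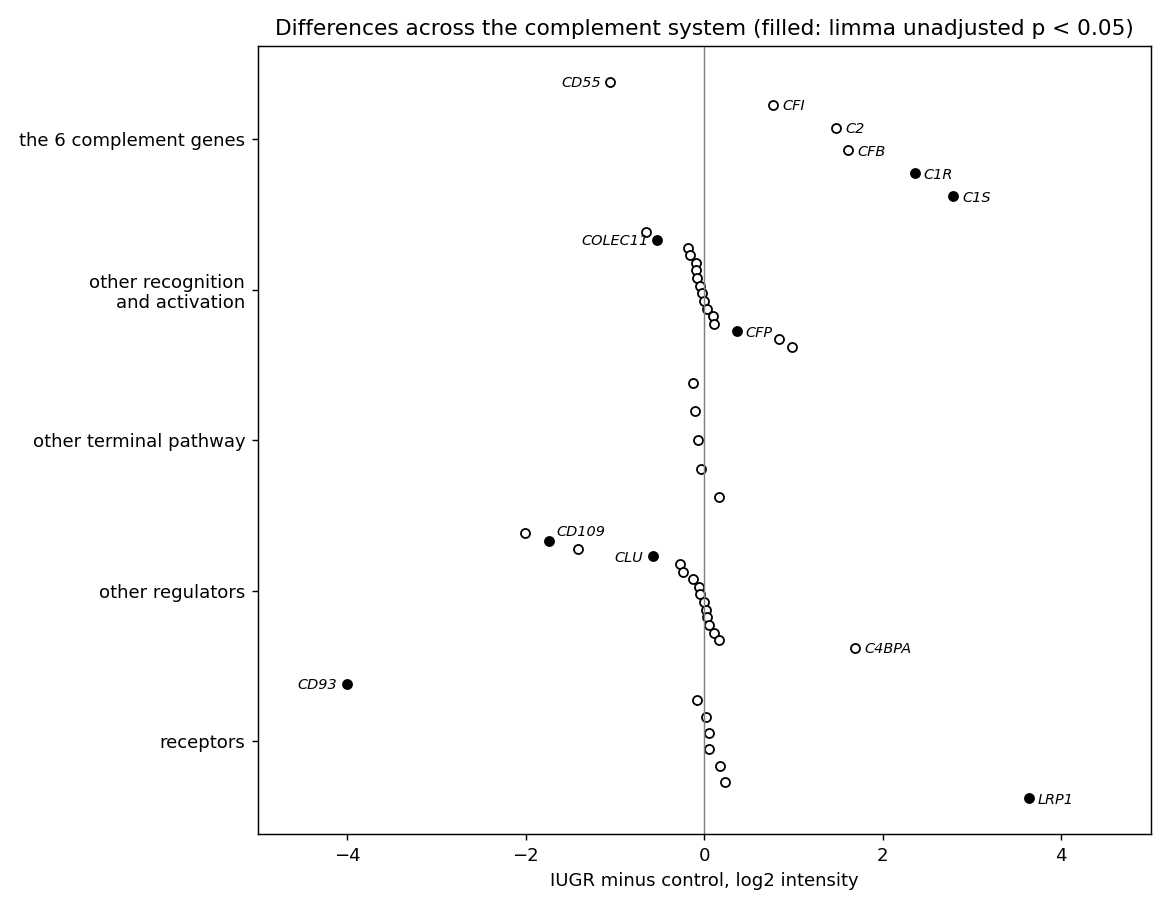
Difference between the IUGR and control means in log2 intensity (x axis) for the 6 complement genes and the 45 other measured complement genes, grouped by role (y axis). Filled points had a limma p under 0.05 before adjustment, which 2 of the 6 and 6 of the 45 did, and none passed after it.

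Among the 45 other complement genes, the receptors CD93 and LRP1 had the widest differences. CD93, an endothelial and myeloid glycoprotein first described as a receptor for C1q, was 8.54 to 10.82 in control and 4.09 to 8.23 in IUGR cultures. It differed by -4.01 ± 0.97 (SE), with a limma adjusted p of 0.138. LRP1, a scavenger receptor that takes up complexes of proteases with their inhibitors, was 5.55 ± 2.00 in control and 9.19 ± 0.75 in IUGR cultures. Its control values were 4.87, 4.90, 3.96 and 8.48, and it differed by 3.64 ± 0.99 (SE) with a limma adjusted p of 0.163. CD93 was lowest in IUGR replicates 4 and 2, where the endothelial markers were lowest. Of the other 6 receptors measured, ITGAM and ITGB2 differed by 0.23 and 0.18. The receptors for the C3 and C5 fragments, C3AR1 and C5AR1, were at most 2.83 and 3.79 in any culture.

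Contact system genes, whose proteases are also inhibited by C1 inhibitor, gave no call. Of 5 measured, none had a limma p under 0.05 before adjustment. BDKRB2, the bradykinin B2 receptor, was 3.34 ± 0.12 in control and 4.16 ± 0.80 in IUGR cultures, with a difference of 0.82 ± 0.38 (SE). KNG1, KLKB1 and F12 differed by 0.06, 0.10 and -0.09.

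No measured signal known to induce complement transcription passed the threshold over all genes. Of 25 measured, 3 were higher and 3 lower in IUGR at a limma p under 0.05 before adjustment, against 8.2% and 7.68% of all genes. IL1A, interleukin 1 alpha, was 2.56, 2.56, 2.56 and 6.08 in control replicates 1 to 4 and 6.87 to 8.21 in IUGR cultures (limma adjusted p = 0.117). IL1R1, the receptor for interleukin 1, chosen here after its values were seen, was 8.61 in IUGR replicate 2, 8.75 in IUGR replicate 4 and no higher than 5.86 in any other culture. IL6, interleukin 6, also higher before adjustment, ran differently, at 7.91, 7.79, 8.19 and 5.71 in IUGR replicates 1 to 4 (limma adjusted p = 0.276). IFNGR1, a chain of the interferon gamma receptor, was 7.12 to 9.39 in control and 6.42 to 7.05 in IUGR cultures (limma adjusted p = 0.155). JAK2, the kinase of that receptor, and RELA, an NF-kB subunit, differed by 0.88 ± 0.29 (SE) and -0.32 ± 0.12 (SE). The median difference of the list was 0.08.

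Interferon gamma is, as background, a classical inducer of complement genes such as C1R, C1S, C2 and CFB. Of 18 other target genes measured, 12 had lower and 4 higher group means in IUGR cultures, several by less than 0.05, against 49.4% lower among all genes. At a limma p under 0.05 before adjustment 2 were lower and 0 higher, against 7.68% and 8.2% of all genes, and none passed over all genes. GBP5, a guanylate-binding protein, was 5.53 to 7.10 in control and 3.30 to 4.46 in IUGR cultures (limma adjusted p = 0.0950). TAP2, a peptide transporter of antigen presentation, differed by -0.40 ± 0.09 (SE), with a limma adjusted p of 0.116. TAP1 and PSMB8 differed by -0.44 and -0.60. The median difference of the list was -0.14.

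C1R and C1S lie next to each other in the RefSeq gene table, as do C2 and CFB, and the genes around each pair were compared. Of the measured genes within 3 places of C1R and C1S, LPCAT3 and EMG1 differed by -0.15 and 0.29, and RBP5 and CLSTN3 by -0.29 and 0.27. None of these 4 had a limma p under 0.05 before adjustment. Around C2 and CFB, EHMT2, a histone methyltransferase gene, differed by 0.97 ± 0.26 (SE) with a limma adjusted p of 0.161. Its top values of 7.71 and 7.33 were those of IUGR replicates 2 and 4, the cultures highest in C2 and CFB. STK19, ZBTB12 and SLC44A4 differed by 0.34, 0.30 and -0.12. Beside CFI, PLA2G12A differed by 0.78 ± 0.13 (SE) and CASP6 by -0.66 ± 0.17 (SE), with limma adjusted p-values of 0.0950 and 0.148. LRIT3, GAR1 and RRH differed by -0.54, 0.41 and 0.08. Around CD55, PFKFB2, C4BPB, KCNT2 and CDC73 differed by 0.71, -0.24, 0.13 and 0.07.

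The genes with the most similar profiles over the 8 arrays were found for CFB, C1S and C1R, which varied most of the 6, among genes at or above the median level. For CFB they were CLDN15, CA3 and SLC9A3R1, with root mean square differences of 0.94, 0.96 and 1.06 between centred values. CLDN15, a claudin of epithelial tight junctions, was 8.16 in IUGR replicate 2, 10.31 in IUGR replicate 4 and at most 4.76 in the other IUGR cultures. For C1S they were PTPRF, TGFBR3 and GK5, with differences of 0.54, 0.56 and 0.56. TGFBR3, a TGF-beta co-receptor, was 7.16, 8.00, 5.41 and 8.42 in IUGR replicates 1 to 4 and 3.31 to 5.15 in control. For C1R they were LACTB, EZR and SLC48A1, with differences of 0.64, 0.71 and 0.74. EZR, ezrin, which links the membrane to actin, was 10.37, 10.65, 9.21 and 11.57 in IUGR replicates 1 to 4 and 8.35 to 8.98 in control.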

How the data were processed

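The authors deposited linear array intensity values, 1 row for each gene symbol or gene number; their background correction, probe summary, normalization and genome build are not given in the sources used here, and linearity was read from the values. Labelling followed a standard Affymetrix protocol, per the labels. Array medians were 37.7 to 41.1 intensity units, so no further normalization was applied. Precision is limited by the number of arrays. Names were assigned through the RefSeq table of assembly ARS-UI_Ramb_v3.0 (12809 by symbol, 51 by synonym, 109 by gene number; 1613 kept the deposited name), keeping the brightest row of a gene. Values below the 10th percentile (5.89 units) were raised to it before log2. IUGR was compared with control in limma 3.58.1 (R 4.3.3; lmFit, eBayes, two-sided, no covariate, Benjamini-Hochberg over 14577 genes, threshold 0.05), which was tested on simulated data. The olfactory receptor level came from 127 rows.

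The 6 genes, the lists of other complement, contact system, inducing signal and interferon gamma target genes and of endothelial, fibroblast, smooth muscle, epithelial and mesothelial, and leukocyte markers, and the tests were chosen with earlier results of these data known. The text names the 6 genes, up to 4 genes of each list with the smallest p, defining markers, the 3 nearest protein-coding genes with a symbol on each side, and the 3 most similar profiles for the 3 most variable genes. Other genes named in the text were picked for their values. Alternatives were another normalization, floor, filter or prior, array weights, covariates, a random block and arrays left out.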

Additional observations from a re-analysis of the deposited data

Results flagged for a closer look

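Among the 88 genes named by rule, each group of 4 cultures was searched for a culture whose gap to the nearest of the others was nearly the whole range of the group (Dixon's critical value), which chance gives in about 1 of 20 groups. Of 176 groups, 16 held one, and none was a value of C1R, C1S, C2, CFB, CFI or CD55. The 176 include groups with all 4 values at the floor, such as C4BPA in control, which could not hold one. In 5 of the 16 (IL1A, FAP, C9, KNG1 and RRH in IUGR replicate 2) the other 3 values were tied at the floor, which fixes the result, so the share given by chance does not apply to them. Control replicate 4 stood apart most often. It was lower than the other controls in CD93 (8.54 against 10.57 to 10.82), TAL1 (5.25 against 6.57 to 6.79) and ITGAM (2.60 against 2.89 to 2.93). It was higher than them in IL1A (6.08 against 2.56), FAP (8.76 against 2.56), MYH11 (9.21 against 3.53 to 4.47), KRT5 (4.17 against 3.52 to 3.56) and RRH (2.85 against 2.56 to 2.58). In the other controls, CFP was 4.13 in replicate 3 against 3.94 to 3.97, C9 was 2.69 and KNG1 2.58 in replicate 2 with the rest at the floor, and C4BPB was 2.91 in replicate 1 against 3.27 to 3.30. IUGR replicate 2 was low in F12 (3.00 against 3.88 to 3.93) and RBP5 (3.11 against 3.52 to 3.58) and high in RRH (3.21 against the floor). IUGR replicate 3 was high in TAL1, at 5.69, and the highest of the others was IUGR replicate 2.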

How the results depend on the processing

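None of the 6 complement genes passed the threshold in the main setting or in any of the 23 alternatives, and the differences of C1R and C1S kept their sign in all 22 alternatives that tested them. The count of all genes called was 10, and it was 0 with median centring, log2(value + 32), a robust prior, passage or the endothelial marker score as a covariate, at the row level, or without IUGR replicates 2 and 4. It was 19 with quantile normalization, 61 with log2(value + 1), 52 among genes above the median, 1 with a trended prior, 74 with array weights and 325 with control replicate 4 left out beside IUGR replicates 2 and 4, and ranged from 0 to 369 when 1 array was left out, the highest without control replicate 4. Of the complement genes 2 had a p under 0.05 before adjustment, against 15.9% of all genes. These were C1R and C1S, and both were over 0.05 with passage (0.302 and 0.0824), with the endothelial score (0.489 and 0.428) and without IUGR replicates 2 and 4 (0.170 and 0.0837). The number was 1 in each of these settings, namely C2 with passage and CD55 in the other 2. Of all genes, 8.49% had such a p with passage, 7.57% with the endothelial score and 12.4% without IUGR replicates 2 and 4. Passage was 5 or 6 in control and 3 or 4 in IUGR cultures. Within a group it differed only in control replicate 1 and IUGR replicate 2. The passage term rests on these cultures, and the fit cannot separate passage from group. The number of complement genes was 0 among genes above the median, where CD55 was the 1 gene tested, against 18.0% of all genes tested there. It was 1 to 3 when 1 array was left out, against 11.8% to 18.4% of all genes. With 1 array left out, C1S stayed under 0.05 (limma p at most 0.0354). C1R was over 0.05 without control replicate 1 or 2 and without IUGR replicate 1, 2 or 4 (limma p of 0.0521 to 0.0624). Without control replicate 4 and IUGR replicates 2 and 4, C1R and C1S had a limma p of 0.248 and 0.131. The number there was 2, namely CFB, lower in IUGR cultures (limma p of 0.0147), and CD55 (limma p of 0.00146). Of all genes, 19.1% had such a p in that setting. The median difference of 1.55 became -1.06 among genes above the median (CD55 alone), 0.77 to 2.29 when 1 array was left out, -0.76 with the endothelial score, -0.0801 without IUGR replicates 2 and 4 and -0.0669 without these and control replicate 4. With the endothelial score C2, CFB and CFI turned to -0.89, -1.73 and -0.62, without IUGR replicates 2 and 4 to -0.0462, -0.62 and -0.11, and without these and control replicate 4 to -0.0654, -0.87 and -0.0683. CD55 turned to 1.22 with passage. With the endothelial score C1R and C1S differed by 0.75 and 0.50, and with passage by 3.03 and 5.32. The cause was not tested. No paired analysis was possible because the labels give no pairing of control with IUGR cultures. The labels also give no replicate numbers, and those used here only name the cultures. Values near the olfactory receptor level (C1S, C2 and CFI in most cultures, and C1R in the controls) limit what folds can be read.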
